A study of Mus musculus with 2 samples.

Results

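The measurements cover 9 genes of the Hedgehog pathway, of 32285 genes listed in the count tables: the ligand gene Shh, the receptor gene Ptch1, the signal transducer Smo, the co-receptor genes Boc and Cdon, the decoy receptor gene Hhip and the transcription factor genes Gli1, Gli2 and Gli3. The genes were taken by symbol, and each symbol occurs once. They were read in keratinocytes of the back skin of mice at postnatal day 1, one day after birth, in 1 library labelled PADI4 WT and 1 library labelled PADI4 cKO. The cells of both carried the Cre recombinase under the keratin 14 promoter (K14-Cre), which is active in the skin epithelium, and a tdTomato reporter by which they were sorted after most of the epidermis had been peeled off. In the library labelled PADI4 cKO both Padi4 alleles were flanked by loxP sites (Padi4 fl/fl). The labels give no treatment, and the number of animals behind each library is not given in the sources used here. With 1 library per genotype there is no replicate check, so no p-value is given, and every interval is a 95% interval that covers the counting of unique molecular identifiers (UMIs, one per captured transcript) or cells alone.

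Hedgehog signalling is switched on where the secreted protein SHH binds PTCH1. Binding releases SMO, and SMO keeps the GLI proteins from being processed into repressors. Cells that respond transcribe Ptch1, Gli1 and Hhip themselves, so the levels of these genes are commonly read as a sign of the response, and PTCH1 and HHIP in turn hold the ligand back. BOC, CDON and GAS1 are cell surface proteins that help SHH to bind. In growing hair follicles, SHH is known from the matrix on one side of the bulb and is needed for the downgrowth of the follicle.

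Cells were kept under the filters of the study, which left 8148 and 7438 cells, in this order for PADI4 WT and the library labelled PADI4 cKO, and both were clustered together without the Hedgehog genes. The 8066 and 7399 epithelial cells held 128045960 and 129939071 UMIs, with medians of 14660 and 16186 UMIs per cell. A total of 18 epithelial clusters had at least 50 cells in each library and were compared, and 13 of them could be named from marker lists as germinative layer (GL, 3 clusters), outer root sheath (ORS, 3 clusters), lower proximal cup (LPC), inner root sheath (IRS), cortex (Cx), medulla (Med), companion layer, interfollicular epidermis (IFE) or sebaceous gland (SG), each with the ending "-like". The other 5 carry only a number and their leading genes. Padi4 itself had 99 UMIs in PADI4 WT and 92 in the library labelled PADI4 cKO, so its level did not separate the libraries. These UMIs come from the 3′ ends of transcripts and need not cover the deleted exons, so they do not check the label. In PADI4 WT, 26.7% of the epithelial cells had Xist UMIs and none of the Y-linked genes Uty, Eif2s3y and Kdm5d (Xist-only cells), and 59.7% had Y-linked UMIs and no Xist. In the library labelled PADI4 cKO, 99.7% were Xist-only cells. Sex and genotype therefore cannot be told apart in a plain comparison of the libraries, and the ratios named below that passed the size rule are also given for the Xist-only cells. The 2 sets of kept cells shared 14 barcodes. Free RNA made up at most 7.88% and 6.73% of the UMIs of epithelial cells, as estimated from collagen and hemoglobin genes. In the epithelial cells the summed level of 4 Merkel cell genes was 0.00781 and 0.0847 CPM (UMIs of a gene per 1000000 UMIs), with 3 of the 4 at 0 in PADI4 WT. The 4 endothelial genes summed to 1.26 and 1.25 CPM, the 4 immune genes to 1.19 and 1.60 CPM with 1 and 2 of them at 0, and the 4 Schwann cell genes to 3.37 and 2.69 CPM with 1 at 0 in PADI4 WT. The 6 fibroblast genes summed to 8.15 and 7.76 CPM, the 6 dermal papilla genes to 15.97 and 12.1 CPM and the 6 melanocyte genes, one of which (Kit) leads a GL-like cluster, to 84.4 and 113 CPM. CPM are not scaled by gene length, so levels below are compared between cells for one gene and not between genes.

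Shh was highest in one GL-like cluster, number 5, which is led by Nr4a3, Ascl4 and Wnt10b. The germinative layer is the matrix from which the hair shaft and its inner sheath grow. Shh reached 300.3 CPM in PADI4 WT (289 to 312, from 2700 UMIs in 479 cells) and 254 CPM in the library labelled PADI4 cKO (245 to 263, from 3195 UMIs in 568 cells), and in both libraries its interval lay above those of the other 17 clusters. The LPC-like cluster 0, with the progenitors that feed the matrix, came next in PADI4 WT at 106 CPM (100.1 to 112) and had 99.8 CPM (95.2 to 104) in the library labelled PADI4 cKO. The IRS-like cluster 13 had 102 CPM (96.0 to 108) and 112 CPM (105 to 119). In PADI4 WT the LPC-like and IRS-like clusters did not differ beyond these intervals.

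The clusters named after the differentiating layers of the hair shaft had less Shh than cluster 5. The Med-like cluster 10 had 73.1 and 91.7 CPM, and the Cx-like cluster 11 had 55.4 and 77.1 CPM. The other GL-like clusters were far below cluster 5. Cluster 1, led by Dlx4, Dcn and Myb, had 50.3 and 80.3 CPM, and cluster 2, led by Kit, Gfra3 and Myb, had 21.5 and 24.7 CPM. The Companion-like cluster 17 had 29.5 and 19.0 CPM. In the remaining 10 clusters, ORS-like, IFE-like, SG-like and unnamed, Shh lay between 1.25 and 10.5 CPM in PADI4 WT and between 0.451 and 9.65 CPM in the library labelled PADI4 cKO. Free RNA could by itself give up to 4.46 and 3.99 CPM of Shh, and 8 of these clusters in PADI4 WT and 6 in the library labelled PADI4 cKO were at or below that level. The other mammalian ligand genes were nearly absent, with 33 UMIs of Dhh and 13 of Ihh over all epithelial cells of both libraries.

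**Figure D1:**
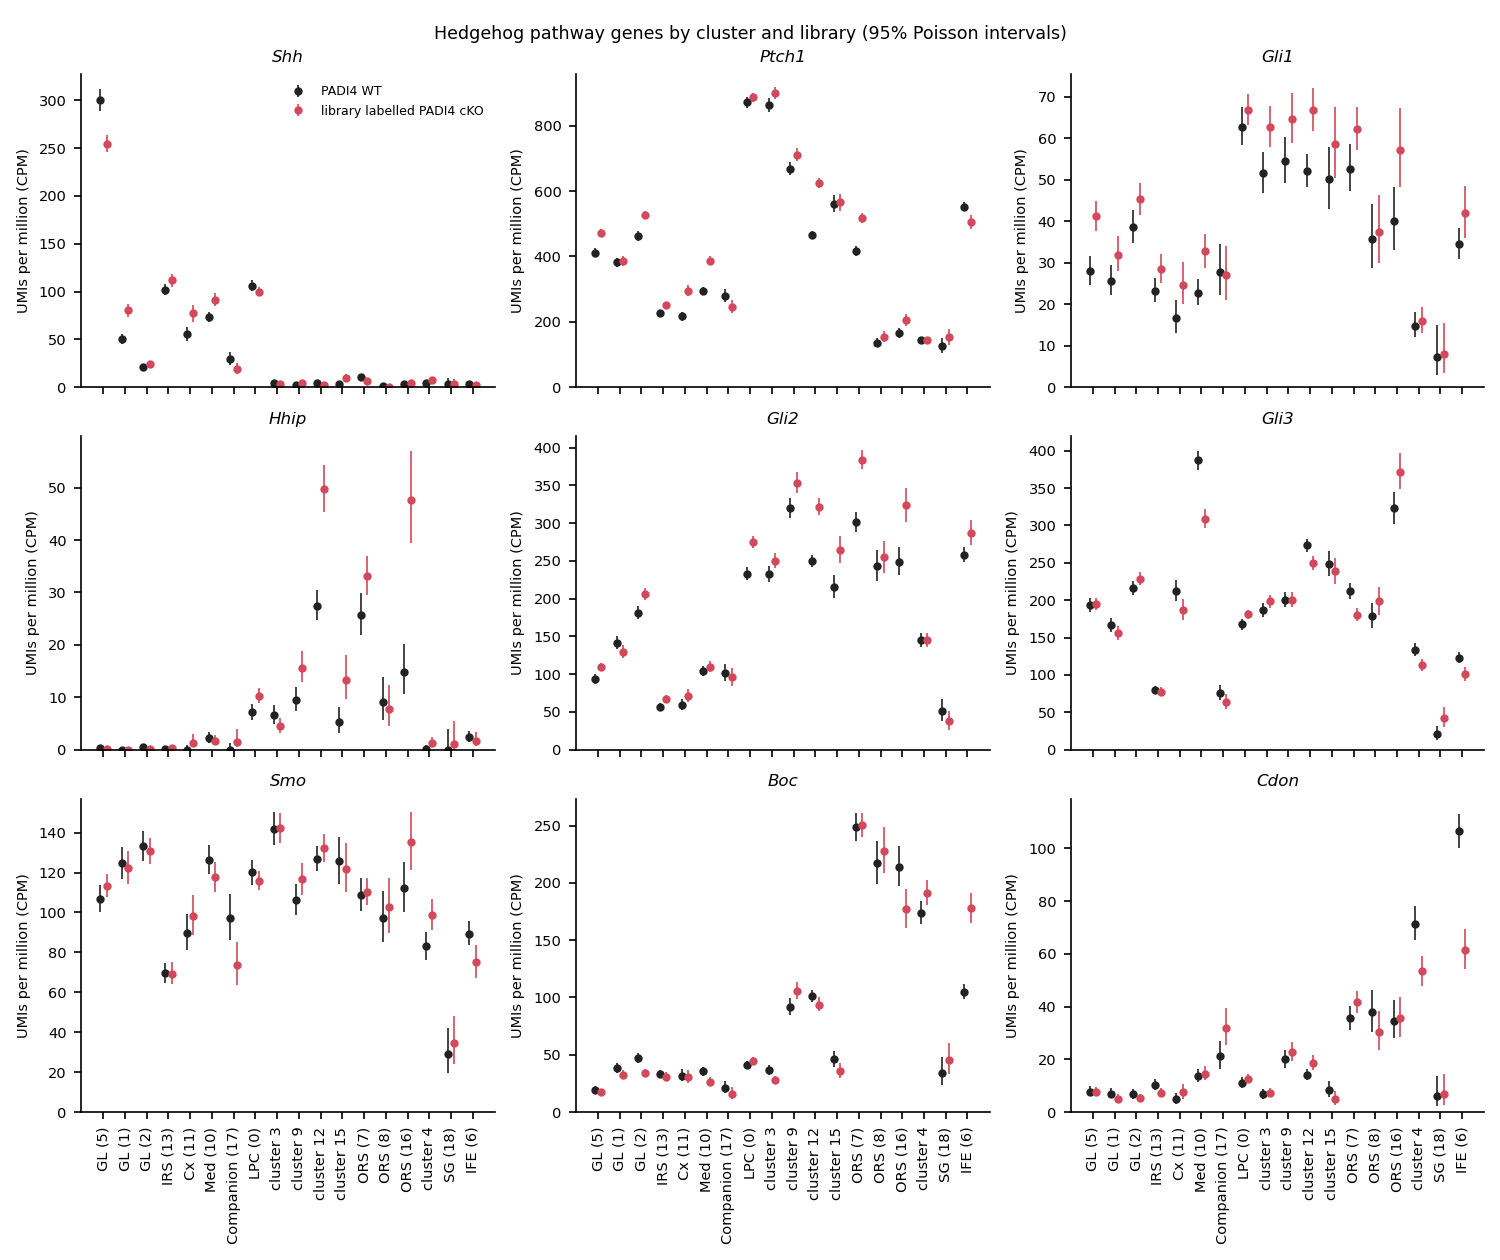
Level of each of the 9 Hedgehog genes (CPM, linear axis from 0) in the 18 epithelial clusters, with a point per library and 95% Poisson intervals, PADI4 WT in black and the library labelled PADI4 cKO in red. Shh stands out in the GL-like cluster 5 (300.3 and 254 CPM), Ptch1 is highest in the LPC-like cluster 0 and in cluster 3, Hhip is highest in cluster 12, and Boc is highest in the ORS-like cluster 7.

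Shh lies on the minus strand of chromosome 5 (chr5:28456815-28467256 in GRCm38), and its exons overlap the antisense gene 9530036O11Rik. Among 12101 genes with at least 500 UMIs, 9530036O11Rik was the gene whose pattern over the 36 pools of 18 clusters and 2 libraries was most like that of Shh (Pearson r = 0.94 of log2(CPM + 1), a description, since the pools of a library share their depth and handling). Whether strand was used in the counting is not given in the sources used here, so UMIs of the overlapping exons may belong to either gene. Scube1 came next with r = 0.92. It codes for a secreted protein of the SCUBE family, whose members help to release SHH from the cell surface. Ascl4 (r = 0.91), Nmnat2 (r = 0.91) and 1700097N02Rik (r = 0.90) completed the 5 nearest genes. Scube1 was highest in the GL-like cluster 5, with 85.4 CPM (79.5 to 91.7) in PADI4 WT and 67.5 CPM (63.0 to 72.2) in the library labelled PADI4 cKO, and it had no UMI in the ORS-like cluster 8 of either library. Disp1, whose product exports the lipid-bearing ligand, was also highest in cluster 5, at 103 CPM (96.8 to 110) and 117 CPM (112 to 124).

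Ptch1 was found in nearly every cell type but at very different levels. It was highest in the LPC-like cluster 0, with 872 CPM (855 to 888) in PADI4 WT and 887 CPM (873 to 901) in the library labelled PADI4 cKO, and in cluster 3, led by Cacna2d3, Slit3 and Ret, with 863 CPM (843 to 884) and 899 CPM (880 to 917). These 2 clusters did not differ beyond their intervals in either library. Cluster 9, led by Lmo3 and Adamts19 and with 4 of the 5 ORS markers raised, followed with 669 and 712 CPM. The cluster with the most Shh, cluster 5, had only 412 CPM (399 to 425) and 471 CPM (459 to 483) of Ptch1, and the IRS-like and Cx-like clusters had 217 to 294 CPM. The lowest levels were those of the SG-like cluster 18 in PADI4 WT, at 125 CPM (104 to 150), and of cluster 4, led by Aldh3a1 and Pparg, in the other library, at 143 CPM (134 to 153). The highest level was thus 6.96 and 6.27 times the lowest.

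Over the 36 pools the correlation of Ptch1 with Shh was 0.14, as a description. Smo, which passes the signal on, varied least. It ran from 29.2 CPM in the SG-like cluster to 142 CPM in cluster 3 of PADI4 WT, and from 34.6 to 142 CPM in the same clusters of the library labelled PADI4 cKO.

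The co-receptor genes were low where Shh was highest. Boc had 19.6 CPM (16.8 to 22.7) in the GL-like cluster 5 of PADI4 WT, its lowest level, and 17.7 CPM (15.4 to 20.1) in the library labelled PADI4 cKO. It peaked in the ORS-like cluster 7, with 248 CPM (237 to 261) and 250.4 CPM (240.4 to 261), and the ORS-like cluster 8 followed with 217 and 228 CPM. Gas1 had 537 and 558 CPM in the ORS-like cluster 8 and 4.45 and 4.54 CPM in cluster 5. Cdon was highest in the IFE-like cluster 6, with 107 CPM (100.2 to 113) and 61.6 CPM (54.3 to 69.6), and in cluster 4, with 71.4 and 53.3 CPM. In cluster 5 Cdon had 7.79 and 7.64 CPM. Over the pools, Shh correlated at −0.75 with Gas1, at −0.68 with Boc and at −0.48 with Cdon, while Boc and Gas1 correlated at 0.84 with each other.

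Gli1, the target gene that serves as the usual readout of the pathway, had its highest levels in 6 clusters that lay close together. It had 62.8 CPM (58.4 to 67.4) in the LPC-like cluster of PADI4 WT, with its interval above those of 15 of the other 17 clusters. Clusters 9, 7, 12, 3 and 15 followed between 50.05 and 54.5 CPM, and neighbours in this order had overlapping intervals. In the library labelled PADI4 cKO the same 6 clusters lay between 58.5 and 66.9 CPM, and none of them differed from its neighbour in order beyond the interval. The Shh-rich cluster 5 had 27.9 CPM (24.6 to 31.6) and 41.2 CPM (37.7 to 44.9), the IRS-like, Cx-like and Med-like clusters had 16.6 to 32.7 CPM, and the SG-like cluster had 7.31 and 7.91 CPM. All GL-like clusters together had 31.1 and 40.7 CPM, and the IFE-like cluster had 34.4 and 41.9 CPM. The highest level of Gli1 was 8.59 and 8.45 times the lowest. Gli1 correlated at 0.84 with Gli2, at 0.75 with Ptch1 and at −0.10 with Shh over the pools. The 5 genes with the pattern most like that of Gli1 were Mllt3, Trerf1, Fxyd6, Pkm and Dennd1a (r from 0.89 to 0.91), and for Ptch1 they were Sh3rf2, Samhd1, Ddost, Slco4a1 and Gm26652 (r from 0.83 to 0.89). The exons of Gli1 overlap those of Arhgap9 and Gm47200 on the other strand.

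Hhip was the most restricted of the response genes. It had 27.4 CPM (24.7 to 30.4) in PADI4 WT and 49.7 CPM (45.4 to 54.2) in the library labelled PADI4 cKO in cluster 12, led by Pi15 and Spon1, followed by the ORS-like clusters 7, with 25.6 and 33.1 CPM, and 16, with 14.8 and 47.6 CPM. The LPC-like cluster had 7.11 and 10.2 CPM. In the 3 GL-like clusters together it had 6 and 3 UMIs, a level of 0.230 and 0.0934 CPM, and cluster 1 had none in either library, where a count of 3 would be 0.391 and 0.420 CPM. The IRS-like cluster had 1 and 3 UMIs. Free RNA could give up to 0.427 and 0.366 CPM. Ptch1 had 412 to 471 CPM in the GL-like cluster 5 with 2 UMIs of Hhip in each library, so these response genes did not share one pattern. Gm15402, Tmem121, A930009A15Rik, Edn2 and Arhgef25 had the patterns most like that of Hhip (r from 0.90 to 0.91).

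Of the 9 genes, 6 have a start site in the RefSeq promoter table of GRCm38.p6. The 250 bases before the starts of Ptch1 and Hhip are shown because both are response genes that were set side by side above, and both lie on the minus strand. The Ptch1 window (chr13:63565736-63565985) precedes a start inside the gene, which spans chr13:63508328-63573598 and has longer transcripts, and the Hhip window is chr8:80058009-80058258, before a gene that spans chr8:79965851-80058006. Capitals mark the GC box GGGCGG on either strand.
Ptch1: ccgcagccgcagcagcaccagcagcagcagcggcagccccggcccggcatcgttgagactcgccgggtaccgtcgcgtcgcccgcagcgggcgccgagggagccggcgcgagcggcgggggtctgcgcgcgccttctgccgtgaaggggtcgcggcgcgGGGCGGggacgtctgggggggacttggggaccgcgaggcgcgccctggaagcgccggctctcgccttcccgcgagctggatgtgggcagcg
Hhip: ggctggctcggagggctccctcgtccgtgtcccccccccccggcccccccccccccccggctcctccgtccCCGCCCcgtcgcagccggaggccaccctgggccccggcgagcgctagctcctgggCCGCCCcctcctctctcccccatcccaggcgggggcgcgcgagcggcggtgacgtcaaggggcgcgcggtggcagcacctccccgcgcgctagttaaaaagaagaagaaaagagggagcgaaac
The Ptch1 window held 1 GC box and the Hhip window 2, and the GC box occurs in 35.7% of the 32851 windows of the table, each taken from 250 bases before to 50 after a start. The windows of Gli2 and Gli3 held it too, and those of Smo and Cdon did not. The GLI binding sequence GACCACCCA, searched on both strands, was in none of the 6 windows and in 0.253% of the table. This says only that these letters are not in these windows.

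Gli2 and Gli3 code for the factors that meet the signal first, Gli2 mostly as activator and Gli3 mostly as repressor. Gli2 was highest in cluster 9 of PADI4 WT, with 320 CPM (307 to 334), and in the ORS-like cluster 7 of the library labelled PADI4 cKO, with 384 CPM (371 to 396). It was low in the IRS-like cluster, with 57.1 and 66.7 CPM, the Cx-like cluster, with 59.3 and 71.5 CPM, and the Shh-rich cluster 5, with 93.3 and 109 CPM. Gli3 was highest in the Med-like cluster 10, with 387 CPM (374 to 400) and 309 CPM (297 to 321), and in the ORS-like cluster 16, with 323 and 372 CPM, which is the cluster of lowest depth (medians of 7750 and 8696 UMIs per cell). In cluster 5 Gli3 had 194 CPM in each library. The exons of Gli3 overlap those of Gm6556 on the other strand.

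Ligand cells were defined as cells with at least 2 Shh UMIs. They made up 1026 of 8066 epithelial cells of PADI4 WT (12.7%, 12 to 13.5%, Clopper-Pearson) and 1194 of 7399 of the library labelled PADI4 cKO (16.1%, 15.3 to 17%), and they held 92.2% and 93.0% of all Shh UMIs. In the GL-like cluster 5, 67.6% and 67.1% of the cells were ligand cells, with up to 38 and 42 Shh UMIs in one cell, while 93 of 479 and 108 of 568 cells had none. The shares were 35.0% and 31.1% in the LPC-like cluster, 25.9% and 29.1% in the IRS-like cluster, 21.5% and 36.6% in the Med-like cluster, 16.5% and 25.7% in the Cx-like cluster and 15.1% and 26.8% in the GL-like cluster 1. These 6 clusters held 90.9% and 91.6% of the ligand cells.

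In the 10 clusters with little Shh, 32 of 4250 cells and 32 of 3739 cells were ligand cells. Scrublet called 19 and 18 of them doublets, against 2.94% and 2.95% of the epithelial cells without a Shh UMI, and most of them were deep, such as those of the ORS-like cluster 7 with medians of 36103 and 27632 UMIs against 9847 and 11785 in its cells without Shh. The ORS-like cluster 8, with medians of 11995 and 12336 UMIs per cell, had 0 ligand cells of 185 and 0 of 178.

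Responding cells had at least 2 UMIs over Ptch1, Gli1 and Hhip. At full depth 74.8% and 82.2% of the epithelial cells met this, mostly through Ptch1, so each cell was also thinned to 2000 UMIs. Then 22.5% and 28.2% met it. The thinned share was 51.2% and 52.6% in the LPC-like cluster, 48.8% and 51.6% in cluster 3, 36.3% and 42.3% in cluster 9, and 26.2% and 36.3% in cluster 12. It was 21.5% and 22.4% in the Shh-rich cluster 5, 9.50% and 12.2% in the IRS-like cluster and 4.31% and 4.32% in cluster 4. Thinning also lowered the share of ligand cells in cluster 5, to 19.4% and 13.9%, and at full depth 92.9% and 96.1% of its cells were responding cells. The clusters with the most responding cells were thus of both kinds, with many ligand cells (the LPC-like cluster) and with almost none (cluster 3, with 4 ligand cells in each library).

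**Figure D2:**
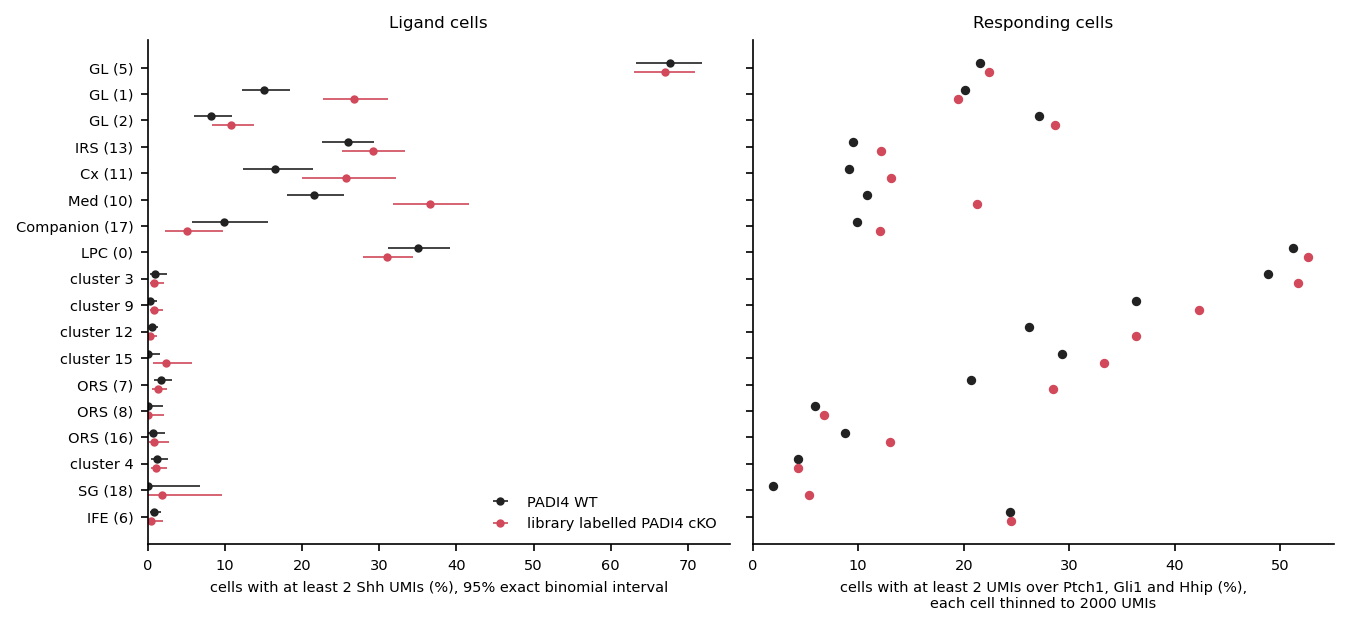
Share of ligand cells (left, with exact binomial intervals) and of responding cells after thinning to 2000 UMIs (right) in the 18 epithelial clusters, as percent of cells, PADI4 WT in black and the library labelled PADI4 cKO in red. Ligand cells, counted at full depth, peak in the GL-like cluster 5 (67.6% and 67.1%), and both shares are high in the LPC-like cluster. The panels differ in depth, so their shares cannot be set against each other. In cluster 5 the thinned shares were 19.4% and 13.9% for ligand cells and 21.5% and 22.4% for responding cells. At full depth 92.9% and 96.1% of its cells were responding cells.

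Most ligand cells were also responding cells at full depth. At equal depth their responding share over all epithelial cells lay near that of cells without a Shh UMI, while single clusters differed in direction. Of the ligand cells, 912 of 1026 (88.9%, 86.8 to 90.7%) and 1109 of 1194 (92.9%, 91.3 to 94.3%) were also responding cells, against 72.2% (71.1 to 73.3%) and 79.0% (77.9 to 80.1%) of the cells without a Shh UMI. The ligand cells were deeper, with medians of 17840 and 19904 UMIs against 13992 and 15080. With every cell thinned to 2000 UMIs, a comparison added after the data were seen, 23.5% (20.9 to 26.2%) and 26.6% (24.1 to 29.2%) of the same ligand cells were responding cells, against 22.2% (21.2 to 23.3%) and 28.6% (27.5 to 29.8%) of the cells without a Shh UMI, with overlapping intervals in both libraries. Within the LPC-like cluster, where depths were close (19795 against 19091 and 20861 against 19915), the shares were 98.99% against 97.2% and 99.2% against 99.6%. In the IRS-like cluster they were 61.6% (109 of 177 cells) against 69.5%, and 67.6% (100 of 148 cells) against 70.7%. In the Med-like cluster they were 96.3% against 69.7% and 94.2% against 84.5%, where the ligand cells were deeper (22075 against 15059.5 and 20714 against 17998 UMIs). Thinned, the Med-like shares were 14.7% (8.63 to 22.7%) against 8.13% (5.38 to 11.7%) and 26.1% (19.0 to 34.2%) against 16.1% (11 to 22.4%). For the LPC-like cluster the thinned shares were 44.7% against 53.6% and 46.1% against 54.9%. Those of the IRS-like cluster were 5.65% against 10.4% and 10.8% against 14.1%, and in both clusters the intervals overlapped. The GL-like cluster 2, with 44 and 60 ligand cells, had 50% (34.6 to 65.4%) against 25.9% (21.9 to 30.3%) and 33.3% (21.7 to 46.7%) against 28.1% (23.9 to 32.5%).

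Within a cluster, ligand cells differed from cells without Shh in other genes of the pathway, and in the LPC-like cluster and the GL-like cluster 5 mostly in the same direction in both libraries. As background, 12% and 12.3% of all genes tested passed 0.5 on the log2 scale between ligand cells and cells without Shh in the LPC-like cluster, 11% and 8.84% in the GL-like cluster 5, 11.1% and 8.99% in the IRS-like cluster 13, 12.3% and 9.53% in the Med-like cluster 10, 11.9% and 9.96% in the GL-like cluster 1, and 13.6% and 12.1% in the Cx-like cluster 11. In the LPC-like cluster Scube1 had 109 CPM in the ligand cells and 3.03 CPM in the cells without Shh of PADI4 WT, a log2 ratio of 5.14 (4.52 to 5.92), and 139.9 against 3.48 CPM in the library labelled PADI4 cKO (5.31, 4.83 to 5.87). Disp1 was also higher in the ligand cells, with log2 ratios of 1.38 (1.12 to 1.65) and 1.27 (1.07 to 1.47). Gli3 was slightly higher, by 0.28 and 0.40.

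Other genes were lower in the ligand cells of the LPC-like cluster. Gli2 had 146 against 296 CPM in PADI4 WT (log2 ratio −1.01, −1.14 to −0.89) and 191 against 338 CPM in the library labelled PADI4 cKO (−0.82, −0.92 to −0.73). Hhip had 12 UMIs against 74 and 15 against 164, which gave log2 ratios of −2.15 (−3.21 to −1.31) and −2.72 (−3.64 to −2.0). Boc was lower by log2 ratios of −0.51 (−0.80 to −0.23) and −0.90 (−1.15 to −0.66). Ptch1 differed by −0.28 in each library, and Gli1 by −0.15 (−0.38 to 0.07) and −0.22 (−0.40 to −0.03). Ligand cells of the LPC-like cluster thus had less Gli2, Hhip and Boc and more Scube1 and Disp1 than their neighbours without Shh.

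In the GL-like cluster 5 Scube1 was again higher in the ligand cells, with log2 ratios of 3.58 (2.95 to 4.39) and 2.81 (2.31 to 3.41), and Disp1 by 0.71 (0.44 to 0.99) and 0.48 (0.27 to 0.70). Boc was lower, with −1.51 (−1.99 to −1.04) and −0.86 (−1.30 to −0.40). Gli3 was lower there, with −0.73 (−0.89 to −0.57) and −0.43 (−0.57 to −0.29), opposite in sign to the LPC-like cluster. Ptch1 was higher by 0.24 (0.12 to 0.37) and 0.28 (0.18 to 0.39), under the size rule. In the IRS-like cluster Scube1 was higher by 3.96 (3.53 to 4.45) and 3.29 (2.79 to 3.85), while Gli2 had opposite signs in the 2 libraries, at 0.30 (0.04 to 0.56) and −0.31 (−0.58 to −0.04).

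In the Med-like cluster 10 the response genes Gli1 and Ptch1 were higher in the ligand cells, unlike in the LPC-like cluster. Gli1 had 36.2 against 16.4 CPM in PADI4 WT (log2 ratio 1.14, 0.71 to 1.58) and 38.6 against 22.1 CPM in the library labelled PADI4 cKO (0.80, 0.38 to 1.24). Ptch1 had 395 against 247 CPM (0.68, 0.56 to 0.80) and 445 against 321 CPM (0.47, 0.36 to 0.59). Hhip, with 3 UMIs against 15 and 3 against 7, had −0.97 (−3.58 to 0.68) and −1.05 (−3.75 to 0.96). Gli3 was lower, by log2 ratios of −0.95 (−1.08 to −0.82) and −0.54 (−0.67 to −0.41), and Scube1 was higher, with 3.27 (2.69 to 3.94) and 3.26 (2.50 to 4.21). Scrublet called 11 of these 109 and 18 of these 138 ligand cells doublets, and 11.3% and 9.77% of the Med-like cells without Shh. The part of doublets and depth in these ratios was not tested. In the GL-like cluster 1 Gli1 had ratios of 0.58 (0.04 to 1.08) and 0.32 (−0.12 to 0.74), and Ptch1 had 0.21 (0.07 to 0.35) and −0.05 (−0.18 to 0.08). In the Cx-like cluster Gli1 had 0.11 (−0.95 to 0.98) and 0.17 (−0.57 to 0.86), and Ptch1 had 0.32 (0.08 to 0.55) and 0.24 (0.05 to 0.43). Gli1 and Ptch1 thus had no common direction between ligand cells and cells without Shh over these 6 clusters, whereas Scube1 was higher in the ligand cells of each.

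**Figure D3:**
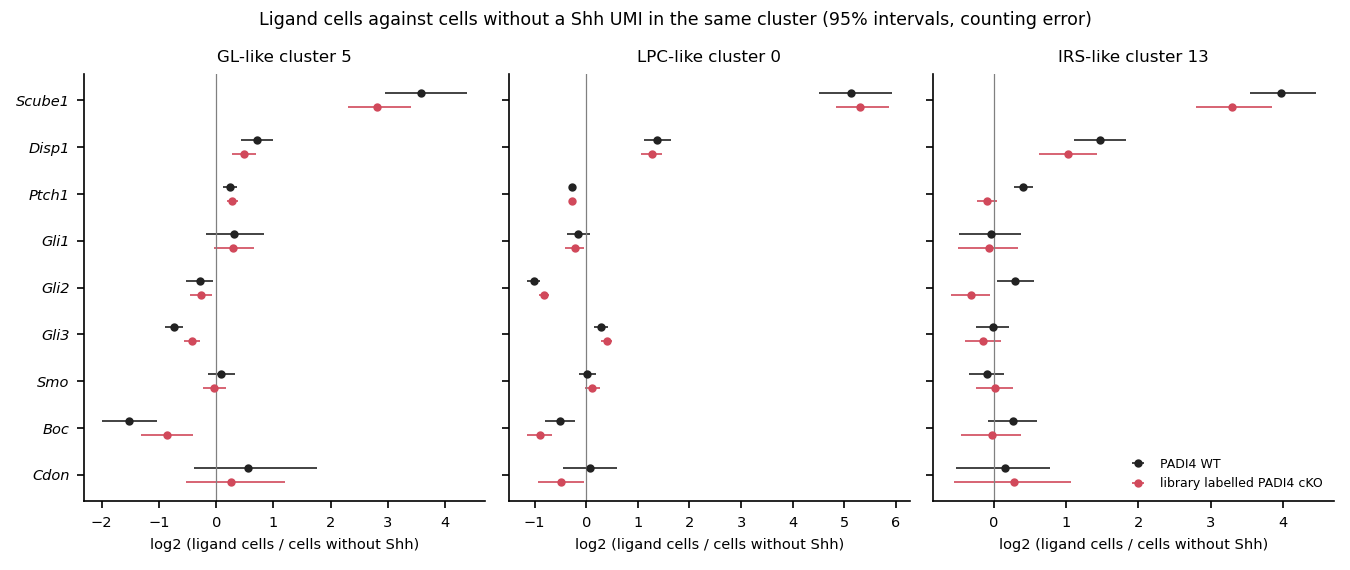
Log2 ratio of CPM in ligand cells over cells without a Shh UMI of the same cluster for 9 pathway genes, with 95% conditional binomial intervals, in the GL-like cluster 5, the LPC-like cluster 0 and the IRS-like cluster 13. Scube1 lies far to the right in all 3 clusters and both libraries, Disp1 lies right of 0, and Boc lies left of 0 in clusters 5 and 0.

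The last comparison was between the libraries, as the log2 ratio of summed CPM, with 0.5 as the size rule and values above 0 where the library labelled PADI4 cKO had the higher level. Over all epithelial cells 5.16% of 14912 genes with at least 100 UMIs passed it, and of the 9 Hedgehog genes 1 did. Hhip had 6.79 CPM in PADI4 WT and 10.5 CPM in the library labelled PADI4 cKO, a log2 ratio of 0.63 (0.51 to 0.76). Gli1 had 37.9 and 48.1 CPM (0.34, 0.29 to 0.40), Ptch1 458 and 534 CPM (0.22, 0.21 to 0.24), Gli2 186 and 216 CPM (0.22, 0.19 to 0.24) and Shh 54.4 and 63.1 CPM (0.21, 0.17 to 0.26). Gli3 (−0.05), Smo (0.04) and Boc (−0.03) had nearly the same level in both. Cdon was lower in the library labelled PADI4 cKO, with 25.1 and 17.8 CPM (−0.49, −0.57 to −0.41).

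These sums also depend on how many cells of each cluster a library holds. With the clusters weighted as in PADI4 WT, an alternative chosen after the data were seen, the ratio was 0.02 for Shh, 0.14 for Ptch1, 0.28 for Gli1, 0.20 for Gli2, 0.68 for Hhip and −0.24 for Cdon. In the Xist-only cells of both libraries (2155 and 7377 cells), Hhip had 9.62 and 10.6 CPM, a ratio of 0.13 (−0.04 to 0.32), and Cdon had 16.2 and 17.8 CPM, a ratio of 0.14 (0.00 to 0.28). Within PADI4 WT, Hhip had 4.96 CPM in the cells with only Y-linked UMIs and 9.62 CPM in the Xist-only cells, and Cdon had 28.7 against 16.2 CPM. For both genes the difference inside this 1 library was larger than that between the libraries. These 2 sets of cells also differ in their mix of clusters, with 60 Xist-only cells among 673 IFE-like cells. By class, the log2 ratio of Y-only over Xist-only cells for Cdon was 0.90 (0.52 to 1.32) in IFE-like and −0.44 (−0.94 to 0.08) in GL-like cells. For Hhip it was −0.73 (−1.16 to −0.28) in ORS-like and 0.48 (−0.31 to 1.42) in LPC-like cells. The part of this mix was not tested. Shh kept its ratio (0.22, 0.15 to 0.30), and those of Gli1 (0.16, 0.08 to 0.25) and Ptch1 (0.15) were smaller.

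**Figure D4:**
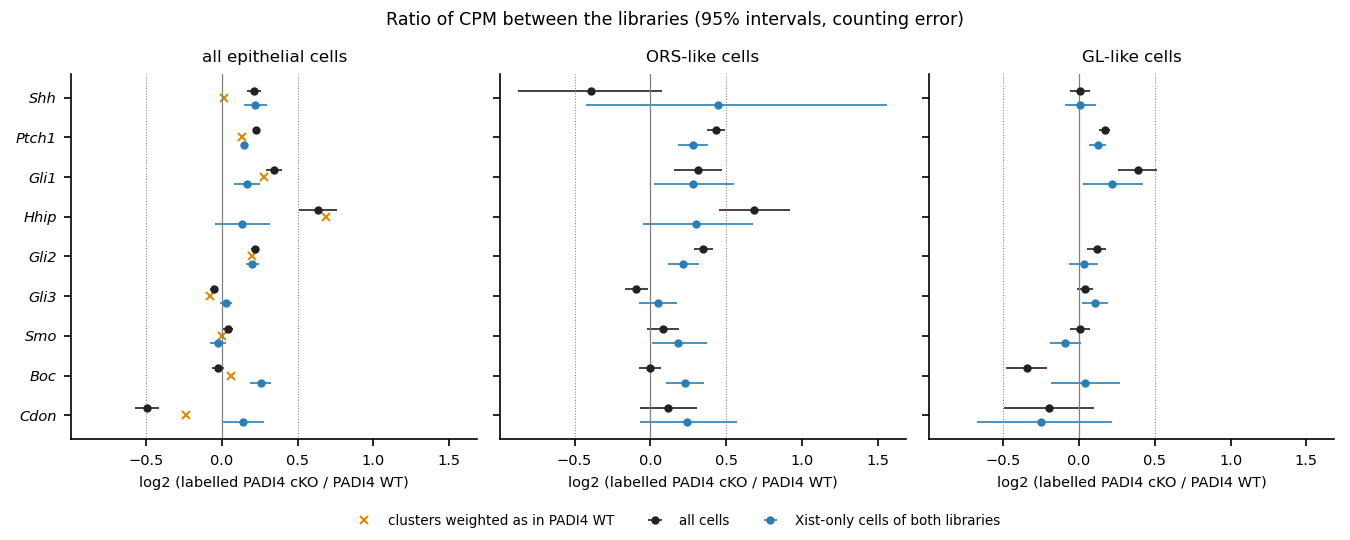
Log2 ratio of CPM between the libraries (above 0 where that labelled PADI4 cKO is higher) for the 9 genes in all epithelial, ORS-like and GL-like cells, with 95% intervals, for all cells (black) and for Xist-only cells (blue), and with the clusters weighted as in PADI4 WT (crosses). Dotted lines mark the size rule of 0.5. Hhip moves from 0.63 to 0.13 and Cdon from −0.49 to 0.14 in the Xist-only cells, and Hhip is not drawn for GL-like cells, where it has 6 and 3 UMIs.

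By class, 4.93% of genes passed the size rule in the LPC-like cells, 2.63% in the GL-like, 4.97% in the ORS-like, 2.63% in the IRS-like, 4.12% in the Cx-like, 3.28% in the Med-like, 12.2% in the IFE-like and 7.72% in the Companion-like cells. The Hedgehog genes past it were 1 of 9 in the LPC-like cells (Hhip, 0.52, 0.15 to 0.91), 0 of 8 in the GL-like, 1 of 9 in the ORS-like (Hhip, 0.68, 0.45 to 0.92), 0 of 8 in the IRS-like, 1 of 7 in the Cx-like (Gli1, 0.57, 0.11 to 1.03), 1 of 8 in the Med-like (Gli1, 0.52, 0.26 to 0.79), 2 of 7 in the IFE-like and 2 of 8 in the Companion-like cells. In the Xist-only cells Hhip had 0.91 (0.21 to 1.79, from 16 and 185 UMIs) in the LPC-like and 0.30 (−0.05 to 0.68) in the ORS-like cells, and Gli1 had 0.76 (0.02 to 1.66, from 16 and 96 UMIs) in the Cx-like and 0.55 (0.11 to 1.05) in the Med-like cells. In the IFE-like cells Boc had 105 and 178 CPM (0.76, 0.62 to 0.90) and Cdon 107 and 61.6 CPM (−0.79, −0.99 to −0.59). In their Xist-only cells Boc kept 0.82 (0.52 to 1.15), while Cdon had 60.1 and 61.6 CPM (0.02, −0.38 to 0.47), from 60 and 278 cells. Ptch1, at 553 and 506 CPM over all IFE-like cells, had 788 and 506 CPM in the Xist-only ones (−0.64, −0.76 to −0.52), so these 60 cells differed from the other cells of that class in PADI4 WT. In the Companion-like cells Shh had 29.5 and 19.0 CPM (−0.63, −1.16 to −0.12) and Cdon 21.1 and 32.0 CPM (0.59, 0.11 to 1.09), against 0.91 (−0.15 to 2.38) and 0.20 (−0.49 to 1.01) in the Xist-only cells, from 45 and 158 cells.

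Gli1 was higher in the library labelled PADI4 cKO in 16 of the 17 clusters in which it had at least 100 UMIs, with the interval above 0 in 12, and Ptch1 in 16 of 18, with the interval above 0 in 10. The range was −0.04 to 0.57 for Gli1 and −0.18 to 0.44 for Ptch1. The clusters of a library share its source and handling, so these counts of clusters are descriptions and not repeats, and they were not made for all genes. In the Xist-only cells Gli1 was higher in 13 of 17 clusters and Ptch1 in 13 of 18, with intervals above 0 in 4 and 8. Hhip was higher in all 5 clusters with enough UMIs, from 0.37 in the ORS-like cluster 7 to 1.67 (1.16 to 2.23) in the ORS-like cluster 16, where it had 41 and 119 UMIs. Its values for the Xist-only cells of these 5 clusters were also above 0, with 0.09 (−0.33 to 0.55) in cluster 7 and 1.02 (0.28 to 1.94) in cluster 16. Smo was higher in 9 and lower in 8 of 17 clusters. Boc was lower in 11 of 17 clusters over all cells, and higher in 15 of the same 17 over the Xist-only cells.

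Over all cells, Shh itself had no common direction in the 9 clusters in which it had at least 100 UMIs, with 5 higher and 4 lower in the library labelled PADI4 cKO. Among the Xist-only cells of the same 9 clusters it was higher in 7 and lower in 2, with a median ratio of 0.23 and intervals above 0 in 3 and below 0 in 1. In the cluster with the most Shh, the GL-like cluster 5, it was lower, at 254 against 300.3 CPM (log2 ratio −0.24, −0.31 to −0.17), in a cluster where 2.61% of genes passed the size rule and Gli1 was the Hedgehog gene that did (0.56, 0.34 to 0.79). In the Xist-only cells these values were −0.29 (−0.40 to −0.17) for Shh and 0.37 (0.03 to 0.75) for Gli1. In the GL-like cluster 1 Shh was higher, at 80.3 against 50.3 CPM (0.67, 0.49 to 0.86), and the Xist-only cells had 80.4 against 70.1 CPM (0.20, −0.06 to 0.47). The Med-like cells had 91.7 against 73.1 CPM (0.33, 0.17 to 0.48, and 0.47, 0.22 to 0.75, in the Xist-only cells), and the Cx-like cells 77.1 against 55.4 CPM (0.48, 0.23 to 0.73), with 77.1 against 93.2 CPM in the Xist-only cells (−0.28, −0.60 to 0.06). The LPC-like cells differed by −0.09 (−0.19 to 0.02). Summed over the 3 GL-like clusters, the levels were 126 and 127 CPM.

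The list of 32 other genes of the pathway, of which 27 had at least 100 UMIs in the epithelial cells, held 1 gene past the size rule over all epithelial cells, Stk36, a kinase of the pathway, with 1.83 and 1.20 CPM (−0.60, −0.91 to −0.31). Stk36 in the Xist-only cells had 1.68 and 1.19 CPM (−0.50, −0.95 to −0.02), from 54 and 155 UMIs. The other ratios reported here lay between −0.29 for Gas1 (85.0 and 69.3 CPM) and 0.24 for Scube2 (14.2 and 16.7 CPM, 0.15 to 0.33). Gas1 in the Xist-only cells had −0.05 (−0.11 to 0.02) and Scube2 had 0.56 (0.40 to 0.72, 11.4 and 16.7 CPM), which is past the size rule. The suppressor Sufu (39.5 and 39.2 CPM), the kinesin Kif7 (11.5 and 12.6 CPM), the ciliary membrane receptor Gpr161 (9.27 and 8.55 CPM) and the cilium gene Arl13b (89.3 and 83.0 CPM) differed by at most 0.14 in size. Of genes that the pathway is known to induce, Mycn had 61.1 and 67.4 CPM (0.14, 0.10 to 0.19), Ccnd1 503 and 546 CPM (0.12), Ccnd2 1201 and 1254 CPM (0.06) and Bcl2 124 and 135 CPM (0.12). The target Foxe1 had 57.7 and 56.4 CPM (−0.03, −0.08 to 0.01), and in the Xist-only cells 76.1 and 56.4 CPM (−0.43, −0.50 to −0.37). The ratios of Mycn, Ccnd1, Ccnd2 and Bcl2 in the Xist-only cells were 0.06, −0.11, 0.04 and 0.22. Mycn was highest in the LPC-like cluster, at 113 and 118 CPM, as Gli1 was, whereas Ccnd2 was highest in the Shh-rich cluster 5, at 2972 and 2815 CPM. Scube2 was concentrated in cluster 4, at 149 and 189 CPM, and had 33.6 and 97.1 CPM in the IFE-like cells (1.53, 1.32 to 1.74). Restricted to the Xist-only IFE-like cells it had 42.2 and 97.1 CPM (1.19, 0.73 to 1.71), from 40 and 410 UMIs in 60 and 278 cells.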

How the data were processed

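The deposited files held, per the file headers and values, raw UMI counts for every gene and barcode of 2 libraries (1786872 and 1787390 barcodes), which the authors made with Cell Ranger on mm10 from Chromium 3′ libraries. Tool versions and the use of strand are not given in the sources used here. Following the limits in the study's methods, a barcode counted as a cell if its genes numbered 1000 to 8000 and its UMIs 2000 to 60000, if hemoglobin and mitochondrial genes took no more than 1% and 20% of them, and if its ribosomal share lay from the 5th to the 99th percentile. The CellBender and Harmony steps were not run. Counts were normalised, cell cycle scores were regressed out, and both libraries were clustered together (Scanpy 1.11.5, Python 3.11.15, leidenalg 0.10.2, resolution 1, 50 components, 15 neighbours) on 1000 variable genes without the Hedgehog genes. A cluster was named from the list with the largest share of its markers raised (1.5 times the rest and at least 5 CPM), needing 3 raised markers. Unless all markers of the list were raised, 1 of them also had to be among the cluster's 30 leading genes. A cluster stayed unnamed where lists tied, or where another list had more markers among its 10 leading genes. The details of this naming rule were set after the clusters were seen. Scrublet called 3.65% and 3.97% of cells doublets at a score of 0.198. Its own threshold for PADI4 WT marked 1 cell, so the threshold it found for the other library was used for both. Doublets were kept.

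UMIs were summed by cluster and library. CPM have exact Poisson intervals, shares of cells Clopper-Pearson intervals and ratios exact conditional binomial intervals, all at 95% and covering counting error only, and the ratio step was checked on simulated counts. Genes with at least 100 UMIs in the cells compared entered the shares past 0.5 on the log2 scale, the threshold of the study. No gene was tested, since each genotype has 1 library. Named are the 9 genes, the pathway genes with at least 100 UMIs, Padi4, and the 5 genes most like each of Shh, Ptch1, Gli1 and Hhip in Pearson correlation of log2(CPM + 1). Exceptions are Dhh and Ihh, of the pathway list but under that minimum, and the cluster leading genes. The genes and lists were chosen with earlier results of these data known. Gene positions are from GENCODE M21 on GRCm38, and promoter sequences from RefSeq. One gene of the pathway list is not reported here.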

Additional observations from a re-analysis of the deposited data

Results flagged for a closer look

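Cdon was higher in 2 clusters that the comparison left out than in any of the 18 compared. In cluster 14, 45 cells of PADI4 WT led by Tlx1 and Krt13 and with no counterpart in the other library, it had 235 CPM. In cluster 19, a non-epithelial cluster in which all 6 fibroblast and all 4 Schwann cell markers were raised, it had 164 CPM in PADI4 WT (55 cells) and 26.2 CPM in the library labelled PADI4 cKO (29 cells). The highest level among the clusters compared was 107 CPM.

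Shh and Cdon had ratios of opposite sign past the size rule in different clusters, and these differences between clusters were not tested. Shh had 0.67 in the GL-like cluster 1 against −0.65 in the ORS-like cluster 7 and −0.63 in the Companion-like cluster 17. In the Xist-only cells the same clusters had 0.20 (−0.06 to 0.47), 0.83 (−0.27 to 2.43) and 0.91 (−0.15 to 2.38). In cluster 7, 78.3% and 84.1% of the Shh UMIs lay in 9 ligand cells of each library, of which 3 and 8 were called doublets. Cdon had −0.79 in the IFE-like cluster 6 against 0.59 in cluster 17, and 0.02 (−0.38 to 0.47) and 0.20 (−0.49 to 1.01) in the Xist-only cells.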

How the results depend on the processing

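No paired analysis was possible because each genotype has 1 library. Shh stayed highest in the cluster matched to GL-like cluster 5, and Hhip in the one matched to cluster 12, at every clustering tried. The size of these levels moved. In PADI4 WT, Shh in cluster 5 (300.3 CPM) had 194 CPM at resolution 0.5, 399.8 at resolution 2, 348 without the cell cycle correction, 425 with a lower limit of 4000 UMIs, 371 thinned, 321 with empty-droplet UMIs subtracted and 408 without mitochondrial and ribosomal genes. Shh in the LPC-like cluster (106 CPM) had 120.4 CPM at resolution 0.5, 132 without the cell cycle correction, 77.4 with the limit of 4000 UMIs, 118 thinned and 141 without mitochondrial and ribosomal genes. Ptch1 in the LPC-like cluster (872 CPM) had 809 CPM at resolution 0.5, 889 at resolution 2, 804 without the cell cycle correction, 899 thinned, 920.4 after subtraction and 1163 without mitochondrial and ribosomal genes, and in cluster 3 (863 CPM) it had 836 at resolution 0.5, 828 at resolution 2, 829.7 thinned, 911 after subtraction and 1125 without mitochondrial and ribosomal genes. Which of these 2 clusters was higher in Ptch1 changed in 3 of the 5 other clusterings and cell sets, and the cluster highest in Gli1, Gli2, Gli3, Boc and Cdon changed in at least 1 of them. With each cell gated by its highest marker score, Shh in GL-like cells had 83.7 in place of 126 CPM and Boc in ORS-like cells 148 in place of 234 CPM. Hhip in cluster 12 (27.4 CPM) had 21.6 CPM thinned and 35.5 CPM without mitochondrial and ribosomal genes.

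In the Xist-only cells the ratios over all epithelial cells were 0.15 for Ptch1, 0.16 for Gli1, 0.029 for Gli3, 0.13 for Hhip, −0.026 for Smo, 0.26 for Boc and 0.14 for Cdon. With clusters weighted as in PADI4 WT, a setting chosen after the data were seen, they were 0.017 for Shh, 0.14 for Ptch1, 0.28 for Gli1, −0.078 for Gli3, 0.0029 for Smo, 0.061 for Boc and −0.24 for Cdon. The Cdon ratio of the IFE-like cells, −0.79, had the other sign, 0.025, in the Xist-only cells. With a minimum of 50 or 500 UMIs per gene, 7.40% or 2.45% of genes passed the size rule over all epithelial cells. Centring on the median gene moved the ratios by 0.01. Ligand cells made up 19.5% and 23.9% of epithelial cells with at least 1 Shh UMI, 10.02% and 12.6% with at least 3, and 2.23% and 2.31% after thinning. Of them, 85.7% in PADI4 WT also responded with at least 1 Shh UMI, and 19.4% and 22.8% after thinning.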
